A study of Rattus norvegicus with 44 samples.

Results

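The genes described here build the actin cytoskeleton of H4-II-E-C3 cells, a cultured rat hepatoma line. The list held 10 genes: the cytoplasmic actins Actb and Actg1, the tropomyosins Tpm1 and Tpm4, the crosslinkers Actn1 and Flna, the adhesion proteins Vcl and Zyx, and the contractility proteins Myl9 and Cald1. Members were the array probe sets whose annotation names exactly 1 of these genes. By this rule 9 genes had 22 probe sets, out of 14217 genes named alone on the array, and 8 genes with 17 probe sets were high enough to be tested. RNA of whole cultures was measured on 44 GeneChip rat genome arrays after 24 h in serum-free medium. The exposures were NiCl2 at 40, 140 and 400 µM, Na2Cr2O7 (called chromium) at 0.275, 1 and 10 µM and CdCl2 (cadmium) at 0.2 µM, 0.55 µM and 1.2 µM, each with 4 biological replicates, and were set against 8 control arrays, 2 for each replicate. The concentrations had been chosen from viability assays, the lowest at a level without observed cell death. The middle and highest concentrations of each metal were set at levels that killed cells. Fewer cells with a transcript and less of it per cell cannot be told apart in such cultures. The replicates are separate exposures of the same line. The p-values set a change against the spread between replicates that remains once replicate number is fitted.

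Conditions were not taken as the sample labels stand. With the titles in series order and the 4 titles of repeated arrays moved to the end, 20 of 44 arrays kept their title and 24 received another. The condition means of this order were those of the study's own supplementary table, whereas means by the labels as given were not. All values below use the displaced order. Under the labels as given, 0 of the 8 tested genes were called against controls at any of the 3 highest concentrations, so the calls at these concentrations rest on that order.

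Actin monomers assemble into filaments that carry cell shape, adhesion and contraction. Tropomyosins run along the filaments and decide which other proteins reach them. Alpha-actinin and filamin tie filaments to each other. Vinculin and zyxin sit where filaments end at adhesions, and zyxin also gathers at stretched or torn filaments. Myosin light chain drives contraction, and caldesmon holds it back. Many of these genes carry CArG boxes, the sequence bound by serum response factor, and are transcribed when free actin monomer is scarce. In hepatocytes the filaments form a belt around the bile canaliculi.

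At the highest concentrations most of the 8 tested genes were higher in nickel and cadmium, and Cald1 was lower in nickel, chromium and cadmium. This concerns the 8 genes only, and wider lists of cytoskeletal genes are counted further below. A gene was called at a Benjamini-Hochberg adjusted p of at most 0.05 over all 16000 tested probe sets in limma, by its brightest probe set. In nickel at 400 µM, 5 of 8 genes were higher and 1 was lower, where 40.0% of all tested probe sets were called, 23.5% higher and 16.5% lower. Without replicate 2 this count of 6 genes was 2. The SD of the 4 replicate changes there ran from 0.12 for Cald1 to 1.00 for Flna and 1.07 for Zyx. In cadmium at 1.2 µM it ran from 0.02 for Cald1 to 0.16 for Tpm1. The nickel SEs and p-values rest on the spread over controls and all nickel concentrations, not on these SDs. In cadmium at 1.2 µM, 7 of 8 genes were higher and 1 was lower, where 37.8% were called, 23.9% higher and 13.9% lower. In chromium at 10 µM, 2 of 8 genes were higher and 1 was lower, where 42.2% were called, 23.0% higher and 19.2% lower, so the share of the 8 genes was near that of all probe sets. The median log2 change of the 8 genes was 0.55 in nickel, 0.01 in chromium and 0.46 in cadmium, beside medians of 0.02, 0.02 and 0.04 over all tested probe sets. These comparisons share their control arrays. Under the stricter rule of an FDR of at most 0.001 for concentration together with a 1.8-fold change, only Zyx in cadmium at 1.2 µM passed among the 8 genes. Of all tested probe sets, 1.66% passed there, 2.01% in nickel at 400 µM and 2.72% in chromium at 10 µM.

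**Figure D1:**
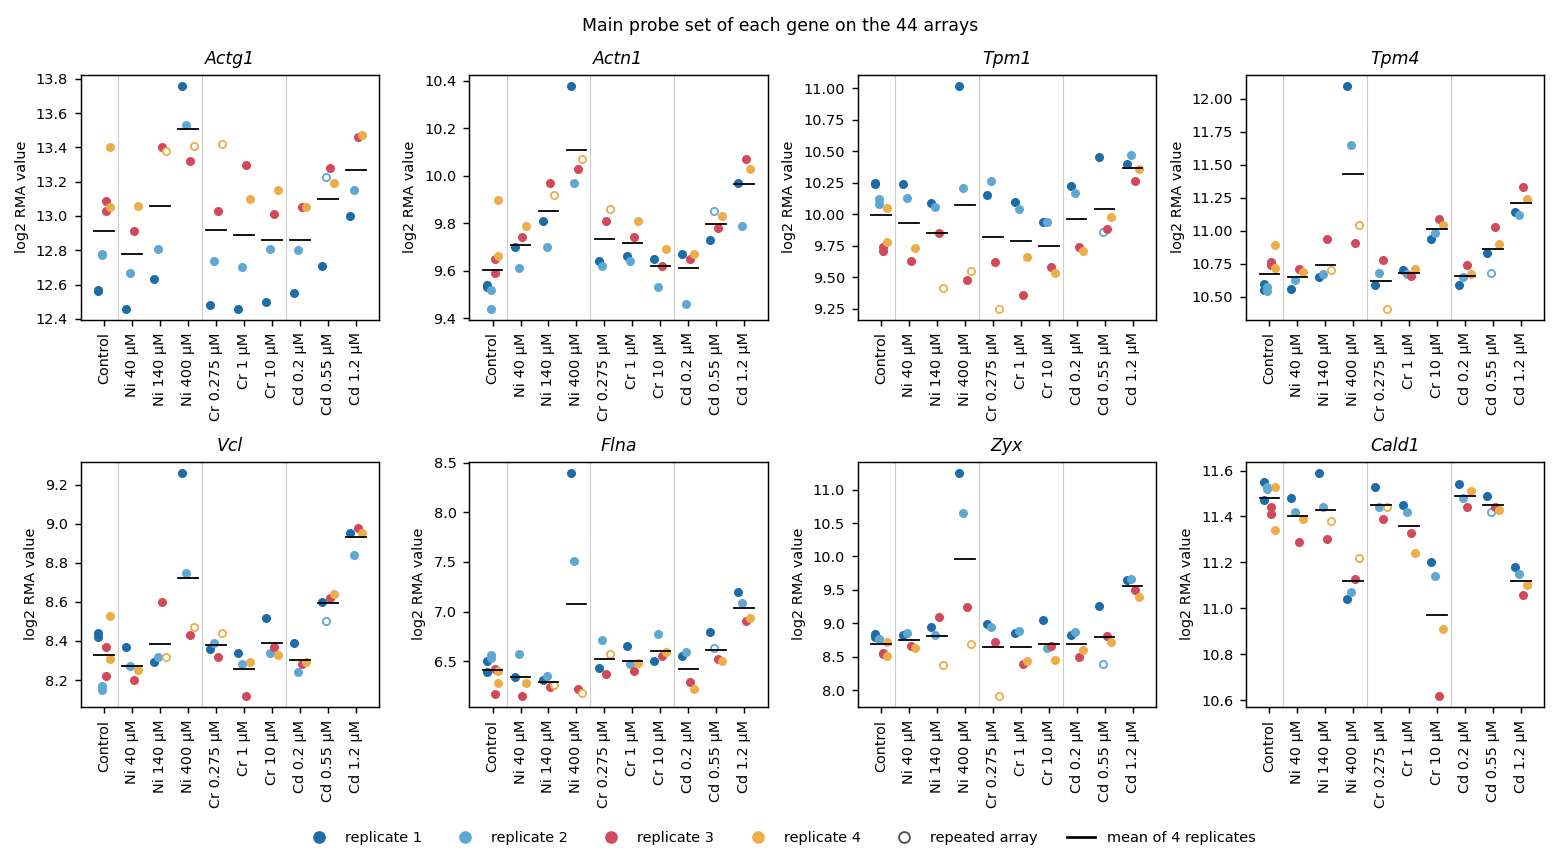
The log2 RMA value of the brightest probe set of each tested gene is plotted for every array, by condition, with replicates in colour, repeated arrays as open circles and the mean of 4 replicates as a line. Zyx on the 4 nickel arrays at 400 µM runs between 8.70 and 11.25, whereas its 4 cadmium arrays at 1.2 µM lie between 9.39 and 9.67.

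The 4 arrays whose titles call them repeated (nickel at 140 and 400 µM and chromium at 0.275 µM in replicate 4, and cadmium at 0.55 µM in replicate 2) differed from the other 40 in some measures. The mean of the shared actin probe sets described below was 13.07 to 13.50 on the repeated arrays and 13.72 to 14.20 on the others. The 3' minus 5' difference of the array's Gapdh control, a sign of RNA integrity and labelling, was 0.15 to 0.33 on the repeated arrays and 0.27 to 0.71 on the others, and that of the actin control was 0.64 to 0.94 and 0.66 to 1.01. On the repeated arrays of chromium at 0.275 µM and cadmium at 0.55 µM, 310 and 314 tested probe sets differed at least 2-fold from the controls of their replicate, against at most 38 in the other replicates of these exposures. The repeated array of nickel at 140 µM gave 68, against 27 to 38 in its other replicates. Nickel at 400 µM gave 1086 and 597 such probe sets in replicates 1 and 2, and 186 and 270 in replicates 3 and 4. Among the cell type markers, 7 of 8 hepatocyte genes on the array passed the filter, 1 of 7 stellate cell or fibroblast genes did (Acta2), and no endothelial (of 3) or macrophage (of 4) gene did. On control arrays the hepatocyte markers ranged from 5.34 to 14.55 (log2), against 3.95 to 6.45, 4.56 to 5.05 and 3.96 to 5.51 for the fibroblast, endothelial and macrophage lists. In nickel, chromium and cadmium at their highest concentrations, 3, 4 and 3 of the 7 hepatocyte markers were called lower and 2, 1 and 2 higher. Among all tested probe sets, 16.5, 19.2 and 13.9% were called lower there and 23.5, 23.0 and 23.9% higher.

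Actg1, cytoplasmic gamma-actin (GRCr8, chromosome 10, 106118106 to 106120951), was measured by 1371327_a_at. On the 4 arrays of nickel at 400 µM it stood at 13.76, 13.53, 13.32 and 13.41 (log2, replicates 1 to 4), against 12.56 to 13.40 with a median of 12.91 on the 8 control arrays. The groups overlapped, since control arrays of replicates 3 and 4 lay at 13.03 to 13.40 and those of replicates 1 and 2 at 12.56 to 12.78. Each nickel array lay above both control arrays of its own replicate. The mean log2 change was 0.60 ± 0.16 (SE, n = 4), or 1.51-fold, with an adjusted p of 0.0085 in limma. The gain was 1.19 and 0.76 in replicates 1 and 2 but 0.25 and 0.19 in replicates 3 and 4, and without replicate 2 the call was lost (adjusted p = 0.073). The values in cadmium at 1.2 µM were 13.00, 13.15, 13.46 and 13.47, each again above both controls of its replicate, and the log2 change of 0.36 ± 0.07 (adjusted p = 0.0012) varied little between replicates. Actg1 in chromium at 10 µM stood at 12.50, 12.81, 13.01 and 13.15, and its log2 change of -0.04 had a 95% interval of -0.22 to 0.14. The dimmer 1384581_at was called in none of these exposures against controls, with log2 changes of 0.29, -0.13 and -0.05 in nickel, chromium and cadmium.

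Actg1 is shown with part of its promoter because it was the only searched list gene with a CArG box there. Actb and Myl9 had no promoter in the RefSeq table and were not searched. Among the 10 promoters of 8 list genes in the RefSeq table, 1 held the box within 250 bases before to 50 bases after the start site, against 1.64% of all 33469 promoters, whose windows have the same length. The stretch lies at chr10:106121012-106121112 on the minus strand of GRCr8, 161 to 61 bases before the start site. Capitals mark the CArG box and an overlapping pair of ACGTG matches, 1 on each strand. The core ACGTG, shared by hypoxia response elements and E boxes, was searched on both strands.
Actg1: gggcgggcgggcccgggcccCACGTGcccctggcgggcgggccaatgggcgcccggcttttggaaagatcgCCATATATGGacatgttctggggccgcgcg
A match is a run of letters and not a measured binding site. ACGTG occurred in the promoters of Actg1, Vcl and Zyx, 3 of these 10 promoters, and in 19.3% of all promoters.

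Actb, cytoplasmic beta-actin and a common reference gene in qPCR (the study's own qPCR used it with Gapdh), had no probe set of its own. The probe sets 1398835_at and 1398836_s_at name Actb, Actg1 and Actg1l1 together and were left out of the member counts. In nickel at 400 µM, 1398835_at stood at 14.11, 14.05, 13.81 and 13.19, against 13.91 to 14.09 with a median of 14.02 on the control arrays. Replicates 1 and 2 lay near the top of the control range or just above it, replicate 3 lay below it, and the repeated array of replicate 4 far below it. The log2 change was -0.22 (adjusted p = 0.19) for this probe set and -0.27 (adjusted p = 0.18) for 1398836_s_at. In cadmium at 1.2 µM, 1398835_at stood at 14.11, 14.22, 14.07 and 14.14, and in chromium at 10 µM at 13.87, 13.80, 13.92 and 13.95. Its log2 changes of 0.12 (95% interval -0.07 to 0.32) and -0.13 (-0.30 to 0.05) were not called. Set directly against each other, nickel at 400 µM was lower than cadmium at 1.2 µM by log2 changes of -0.35 (adjusted p = 0.021) and -0.42 (adjusted p = 0.023) for the 2 probe sets, and the part of the low repeated array in this difference was not tested. Actb alone cannot be read from these probe sets.

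**Figure D2:**
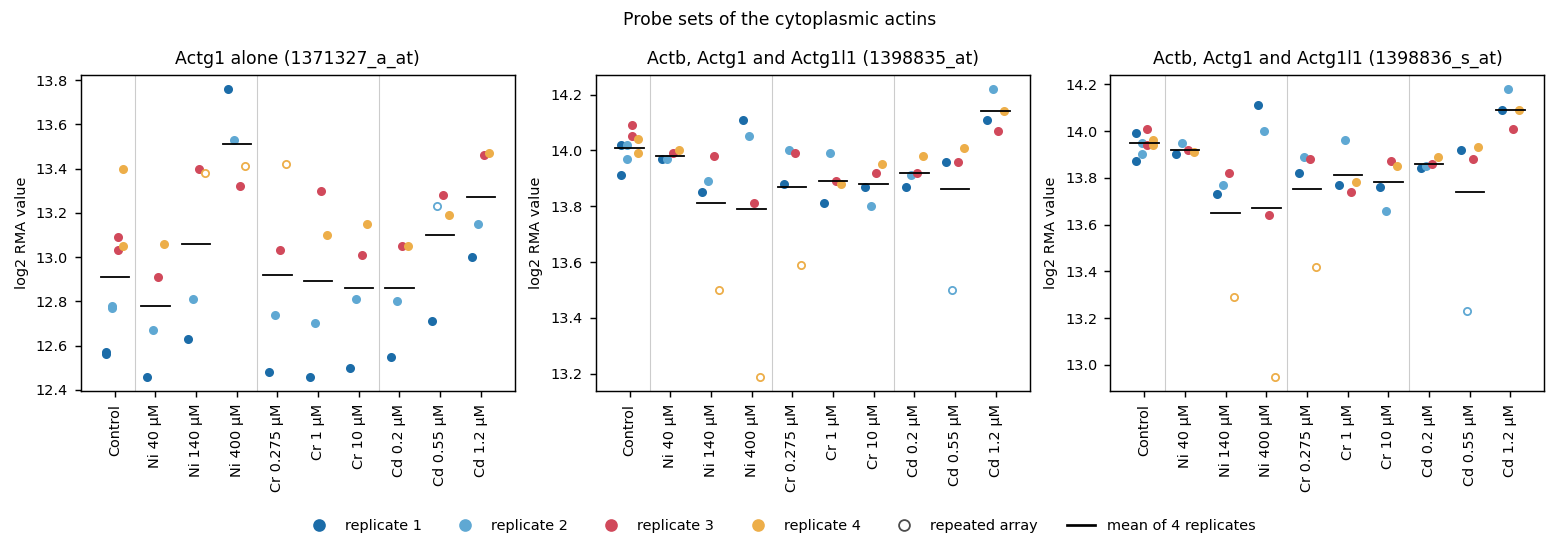
Log2 RMA values of the probe set that names Actg1 alone and of the 2 that name Actb, Actg1 and Actg1l1, for every array by condition, with replicates in colour, repeated arrays open and the mean of 4 replicates as a line. The open circles of the shared probe sets lie below all filled ones, with the lowest at 13.19 and 12.95 in nickel at 400 µM, whereas 1371327_a_at shows no such drop.

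Tpm4, a tropomyosin of stress fibres and motile cells (chromosome 16, 17718442 to 17732483), was higher at the highest concentration of each metal. Its 1371653_at stood at 12.10, 11.65, 10.91 and 11.04 in nickel at 400 µM, against 10.54 to 10.89 with a median of 10.66 on the control arrays. It was 10.94, 10.98, 11.09 and 11.04 in chromium at 10 µM, and 11.14, 11.12, 11.33 and 11.24 in cadmium at 1.2 µM. All 12 exposed arrays lay above all 8 control arrays. The log2 changes were 0.76 ± 0.20 in nickel (SE, n = 4, adjusted p = 0.0078), 0.34 ± 0.08 in chromium (adjusted p = 0.0034) and 0.54 ± 0.06 in cadmium (adjusted p = 1.3e-05). Without replicate 2 the nickel call was lost (adjusted p = 0.084), and without replicate 1 the change was 0.50 and called. The other Tpm4 probe set, 1368838_at, was called higher in nickel (log2 change 0.70) and cadmium (0.55), while its 0.24 in chromium was not called (adjusted p = 0.25).

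Tpm1, the other tropomyosin (chromosome 8, 76516654 to 76543661), makes many splice forms, and its probe sets did not move together. The main one, 1370287_a_at, stood at 10.40, 10.47, 10.26 and 10.36 in cadmium at 1.2 µM, against 9.71 to 10.25 with a median of 10.06 on the control arrays. The groups did not overlap, by a margin of 10.26 to 10.25, and the log2 change was 0.38 ± 0.10 (adjusted p = 0.0081). Without replicate 3 this call was lost (adjusted p = 0.093). In nickel at 400 µM the same probe set was 11.02, 10.21, 9.48 and 9.55, with replicate 1 above and replicates 3 and 4 below every control array, and the mean change of 0.07 was not called (adjusted p = 0.76). In chromium at 10 µM it was 9.94, 9.94, 9.58 and 9.53, below the controls of the same replicate in each case, with a log2 change of -0.25 that was not called (adjusted p = 0.083). 1370288_a_at followed this pattern, with changes of 0.44 in cadmium (adjusted p = 0.031), 0.10 in nickel and -0.31 in chromium. 1395794_at did not: in nickel it stood at 8.11, 7.44, 6.88 and 7.28, against 6.73 to 7.26 on the control arrays, a log2 change of 0.46 (adjusted p = 0.021), and in cadmium its change was 0.03. For this probe set nickel exceeded cadmium by 0.42 (adjusted p = 0.0059), while 1370287_a_at had a nickel minus cadmium difference of -0.31 (adjusted p = 0.094). 1368724_a_at was not called in any exposure, and 3 more Tpm1 probe sets were too low to test. Which transcripts each probe set reads was not analysed here.

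Actn1, alpha-actinin, which bundles filaments and links them to integrins (chromosome 6, 104731485 to 104826312), changed in nickel and cadmium. 1389189_at stood at 10.38, 9.97, 10.03 and 10.07 in nickel at 400 µM, against 9.44 to 9.90 with a median of 9.56 on the control arrays, and the groups did not overlap. The log2 change of 0.51 ± 0.08 (SE, n = 4) had the smallest adjusted p of the 8 genes in nickel, 0.00037, and stayed called when any replicate was left out. In cadmium at 1.2 µM the probe set was 9.97, 9.79, 10.07 and 10.03, where replicate 2 lay below the highest control array, and the change was 0.36 ± 0.07 (adjusted p = 0.00072). Its values in chromium at 10 µM, 9.65, 9.53, 9.62 and 9.69, lay inside the control range, with a change of 0.02 (95% interval -0.10 to 0.14). The second probe set, 1398294_at, was called in the same directions, with changes of 0.37 in nickel (adjusted p = 0.048) and 0.31 in cadmium (adjusted p = 0.016).

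Flna, filamin A, which crosslinks filaments into networks and ties them to the membrane (chromosome X, 157159051 to 157185559), split widely between nickel replicates. 1371382_at stood at 8.40, 7.51, 6.22 and 6.18 in nickel at 400 µM, against 6.17 to 6.56 with a median of 6.41 on the control arrays. Replicates 1 and 2 were far above the controls and replicates 3 and 4 among them, and the log2 change of 0.67 ± 0.30 was not called (adjusted p = 0.088). Without replicate 1 it was 0.24 (adjusted p = 0.40), and without replicate 4 it was 0.95 and called (adjusted p = 0.045). All arrays of cadmium at 1.2 µM lay above the controls, at 7.20, 7.09, 6.90 and 6.93, with a change of 0.62 ± 0.06 (adjusted p = 4.9e-06). In chromium at 10 µM Flna was 6.50, 6.77, 6.55 and 6.59, overlapping the controls, and its change of 0.20 passed narrowly (adjusted p = 0.047), but not without replicate 2, 3 or 4 (adjusted p = 0.12, 0.19 and 0.13).

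Vcl, vinculin, which couples talin and integrins to actin (chromosome 15, 3315069 to 3404891), was one of 2 members called below the highest concentration. In cadmium at 1.2 µM, 1372905_at stood at 8.95, 8.84, 8.98 and 8.95, against 8.15 to 8.53 with a median of 8.34 on the control arrays, with no overlap. The change was 0.60 ± 0.05 (adjusted p = 3.1e-06). At 0.55 µM it stood at 8.60, 8.50, 8.62 and 8.64, and the repeated array of replicate 2 alone fell inside the control range. This change was 0.27 ± 0.05 (adjusted p = 0.0098). In nickel at 400 µM the values were 9.26, 8.75, 8.43 and 8.47, so replicates 1 and 2 lay above all controls and replicates 3 and 4 among them. The change of 0.40 ± 0.14 (adjusted p = 0.031) was lost without replicate 1 (0.25, adjusted p = 0.12) or replicate 2 (adjusted p = 0.19). The values in chromium at 10 µM were 8.52, 8.34, 8.37 and 8.33, with a change of 0.07. A second probe set, 1375538_at, was called in nickel (0.62, adjusted p = 0.0062), in cadmium at 1.2 µM (0.76) and at 0.55 µM (0.49), and the third, 1398476_at, in cadmium at 1.2 µM (0.46, adjusted p = 0.028).

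Zyx, zyxin (chromosome 4, 72203991 to 72213181), showed the largest log2 changes of the 8 genes in nickel and in cadmium. 1388130_at stood at 11.25, 10.65, 9.25 and 8.70 in nickel at 400 µM, against 8.51 to 8.84 with a median of 8.75 on the control arrays. Replicates 1 to 3 were above every control array, and the repeated array of replicate 4 was among them. The log2 changes by replicate were 2.43, 1.88, 0.70 and 0.08, with an SD of 1.07. Their mean of 1.27 ± 0.32 (SE of the limma fit, n = 4) was 2.42-fold, with an adjusted p of 0.0072. That SE is pooled over the controls and all nickel concentrations, and so is smaller than the spread of these 4 changes would give. Without replicate 2 the change was 1.07 and not called (adjusted p = 0.076), and without the 4 repeated arrays it was 1.66 (adjusted p = 0.0014). In cadmium at 1.2 µM Zyx stood at 9.65, 9.67, 9.50 and 9.39, all above the controls, with changes of 0.83, 0.90, 0.95 and 0.77 by replicate. The mean of 0.86 ± 0.12 was 1.82-fold (adjusted p = 0.00011). In chromium at 10 µM it was 9.05, 8.63, 8.66 and 8.46, on both sides of the controls, with a change of 0.01 (95% interval -0.28 to 0.30). At 0.55 µM cadmium the change was 0.10 (adjusted p = 0.59) and at 140 µM nickel 0.12 (adjusted p = 0.89), so the rise was called at the highest concentrations only.

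The stretch of the Zyx promoter that holds ACGTG is printed because Zyx moved most. It lies at chr4:72203934-72203979 on the plus strand of GRCr8, 66 to 21 bases before the start site, and the capitals mark overlapping matches on the 2 strands.
Zyx: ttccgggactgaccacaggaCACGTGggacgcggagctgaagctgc
No CArG box was found in the Zyx windows, which says only that these letters are not there.

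**Figure D3:**
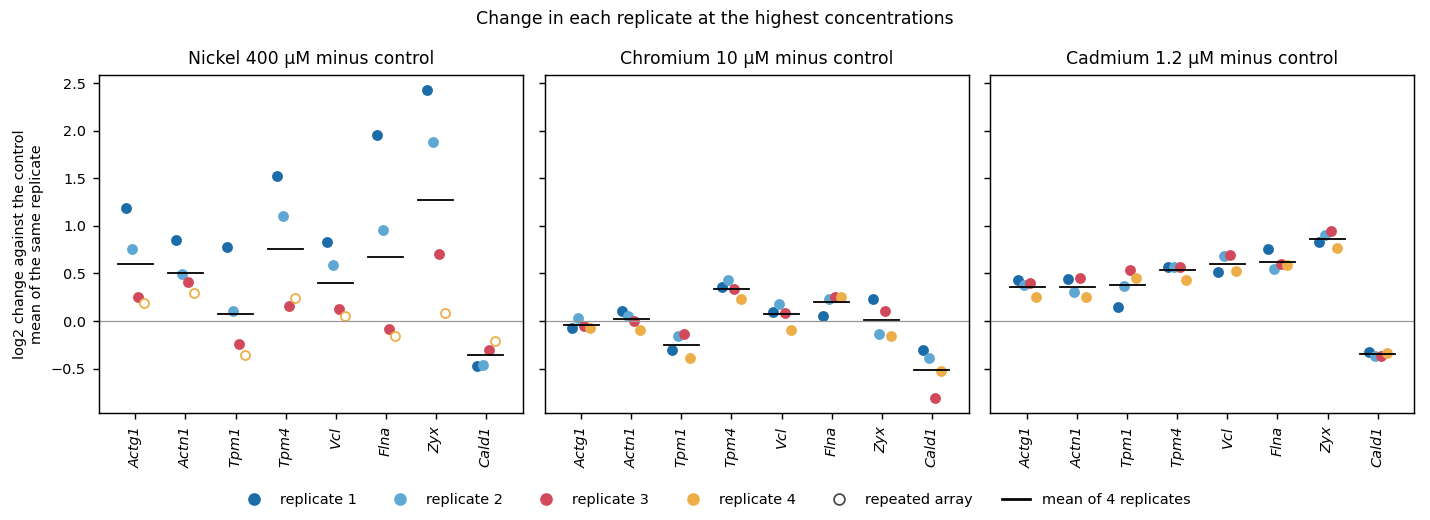
The log2 change of each replicate against the mean control of the same replicate is plotted for the 8 genes at the highest concentration of nickel, chromium and cadmium, with the mean of 4 replicates as a line. In nickel, replicates 1 and 2 of Zyx reach 2.43 and 1.88 while replicates 3 and 4 lie at 0.70 and 0.08, whereas the cadmium points of Zyx lie between 0.77 and 0.95.

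Cald1, caldesmon, which binds actin and tropomyosin and restrains myosin (chromosome 4, 64232906 to 64414085), was the only tested member called lower. 1371969_at stood at 11.04, 11.07, 11.13 and 11.22 in nickel at 400 µM, against 11.34 to 11.55 with a median of 11.50 on the control arrays. It was 11.20, 11.14, 10.62 and 10.91 in chromium at 10 µM, and 11.18, 11.15, 11.06 and 11.10 in cadmium at 1.2 µM. No exposed array of these groups overlapped the controls. The log2 changes were -0.36 ± 0.07 in nickel (SE, n = 4, adjusted p = 0.0011), -0.51 ± 0.08 in chromium (adjusted p = 0.00024) and -0.35 ± 0.05 in cadmium (adjusted p = 9.8e-05), and each stayed called when any replicate was left out. The second probe set, 1368824_at, was lower by -0.31, -0.48 and -0.30 on the log2 scale, each called. Myl9, the regulatory light chain of non-muscle and smooth muscle myosin II and the partner of caldesmon in contraction, was below the filter on every array: its probe set, 1388298_at, ranged from 5.07 to 5.66 over the 44 arrays, and no test was made.

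Below the highest concentrations little was called. At 40 µM nickel, 0.275 µM chromium, 1 µM chromium and 0.2 µM cadmium, 0 of 8 genes were called, where 0.00%, 0.00%, 0.0438% and 0.481% of all tested probe sets were. At 140 µM nickel it was 0 of 8, where 3.35% were called, with the lowest adjusted p at 0.13 for Actn1 (log2 change 0.25). At 0.55 µM cadmium, Vcl and Flna (log2 change 0.20, adjusted p = 0.043) were called higher, 2 of 8 where 8.30% of all tested probe sets were called higher and 10.6% called in all. Tpm4 (0.19, adjusted p = 0.051), Actn1 (0.19, adjusted p = 0.071) and Actg1 (0.19, adjusted p = 0.089) missed the threshold there. This count rests on few arrays: it was 0 without replicate 3, 1 without replicate 1 or 4, and 4 without the repeated arrays.

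**Figure D4:**
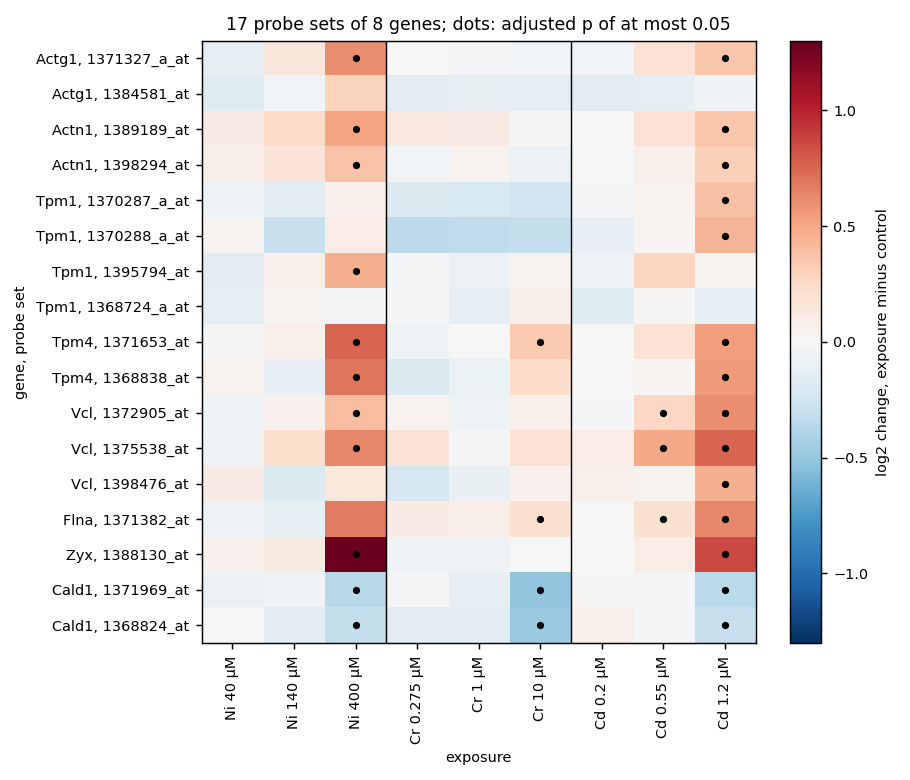
Log2 change against controls of the 17 tested probe sets (rows) in the 9 exposures (columns), higher in red and lower in blue, with a dot where the adjusted p was at most 0.05. In the cadmium column at 1.2 µM, 12 probe sets are called higher and 2 lower, against 9 and 2 in nickel at 400 µM and 2 and 2 in chromium at 10 µM. Of all tested probe sets, 37.8, 40.0 and 42.2% are called in these cadmium, nickel and chromium columns. The 17 rows come from 8 genes and are not independent.

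The metals were also set directly against each other at their highest concentrations, which differ in molar terms, in a joint limma fit. Nickel exceeded chromium for 5 of 8 genes, where 44.6% of all tested probe sets were called and 22.9% were higher: Zyx by 1.27 (adjusted p = 8.7e-05), Actg1 by 0.64 (9.6e-05), Actn1 by 0.49 (2.4e-07), Tpm4 by 0.42 (0.015) and Vcl by 0.33 (0.0062) on the log2 scale. Cadmium exceeded chromium for 5 of 8 genes, where 43.6% were called and 24.3% were higher: Zyx by 0.85 (adjusted p = 0.0056), Tpm1 by 0.62 (0.00097), Vcl by 0.54 (4.2e-05), Actg1 by 0.41 (0.0092) and Actn1 by 0.35 (7.1e-05). Tpm4 (0.20, SE 0.14, adjusted p = 0.27) and Flna (0.43, SE 0.22, adjusted p = 0.11) were not called. The joint fit takes 1 spread per gene over all 10 conditions, the split nickel replicates included. Against controls, their SEs in chromium and cadmium were 0.08 and 0.06 for Tpm4 and 0.07 and 0.06 for Flna. A missing call here does not show equal levels. Between nickel and cadmium 0 of 8 genes were called, where 45.1% of all tested probe sets were. For Zyx the nickel minus cadmium difference was 0.41 with a 95% interval of -0.09 to 0.92, and for Vcl it was -0.21 (-0.41 to -0.01, adjusted p = 0.087). Of these 8 genes, 4 were called between nickel and cadmium without the repeated arrays. Cald1 was not called between any of these metals, with chromium lowest (nickel minus chromium 0.15, 95% interval 0.01 to 0.29, adjusted p = 0.075).

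Other cytoskeletal genes were counted from lists by role, and each count is read against the share of all tested probe sets called higher (23.5, 23.0 and 23.9% in nickel, chromium and cadmium) and lower (16.5, 19.2 and 13.9%). Among proteins that crosslink and bundle filaments, 5 of 13 tested genes rose and 0 fell in nickel at 400 µM, 3 rose and 3 fell in chromium at 10 µM, and 7 rose and 1 fell in cadmium at 1.2 µM. With 13 genes, both chromium shares were near those of all tested probe sets. Pdlim5, counted as higher in nickel and cadmium and named only for this, averaged 5.62 (log2) on control arrays. That is below the filter floor of 5.919, so Pdlim5 was tested only because exposed groups passed. Cnn2, a calponin, had log2 changes of 0.51, -0.19 and 0.89 in nickel, chromium and cadmium, of which that in chromium was not called. Cnn3, an acidic calponin, had log2 changes of 0.78, 0.37 and 1.38 in nickel, chromium and cadmium, and Pdlim1, which joins alpha-actinin at stress fibres, had 0.72, 0.61 and 0.69, each called. Among focal adhesion genes, 5 of 19 rose and 2 fell in nickel, 3 rose and 6 fell in chromium, and 5 rose and 3 fell in cadmium, and the shares that rose in nickel and cadmium were near those of all probe sets. Csrp1, a LIM protein that binds zyxin and alpha-actinin, rose by 0.87, 0.83 and 1.22 (adjusted p = 0.0032, 6.5e-05 and 3.6e-07), so in chromium it rose while Zyx and Actn1 were not called. Lims1, an adaptor that binds integrin-linked kinase, rose by 0.50, 0.50 and 0.54. Ajuba, a LIM protein of the zyxin family, rose in chromium (0.50) and cadmium (0.20), while its 0.32 in nickel was not called (adjusted p = 0.10).

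Filament turnover and capping genes rose in 4, 6 and 8 of 16 cases in nickel, chromium and cadmium and fell in 4, 2 and 1. Of all tested probe sets, 23.5, 23.0 and 23.9% were called higher and 16.5, 19.2 and 13.9% lower. The share of turnover and capping genes that rose in nickel was near that of all tested probe sets. Capg, which caps barbed ends, rose by 1.25 in cadmium (adjusted p = 5.7e-08) and by 0.23 in chromium, and fell by 0.25 in nickel. Wdr1, which works with cofilin to take filaments apart, rose in cadmium (0.43), while its 0.37 in nickel and -0.13 in chromium were not called. Coro1b, a coronin that helps take branches apart, fell in nickel (-0.52) and chromium (-0.35) and had 0.05 in cadmium. Of 14 nucleation genes, which start new filaments, 2 rose and 2 fell in nickel, 1 rose and 1 fell in chromium, and 7 rose and 1 fell in cadmium. In nickel and chromium neither share exceeded that of all tested probe sets. The Arp2/3 subunit genes Arpc5 (0.47), Arpc2 (0.30) and Arpc3 (0.26) were among those that rose in cadmium.

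In myosin II and its control, 1 of 9 genes rose and 1 fell in nickel, 1 rose and 3 fell in chromium, and 2 rose and 1 fell in cadmium. Over all tested probe sets, 23.5, 23.0 and 23.9% were called higher and 16.5, 19.2 and 13.9% lower. In cadmium the shares of these 9 genes were near those of all tested probe sets. Mylk, the myosin light chain kinase, fell by log2 changes of -0.47, -1.62 and -0.58 in nickel, chromium and cadmium (adjusted p = 0.0051, 1.9e-07 and 0.00086). Of 7 genes of serum response factor, MRTF and YAP signalling, 3 rose in nickel, 0 rose and 2 fell in chromium, and 4 rose in cadmium. Ccn1 and Ccn2, matricellular genes that YAP and serum response factor drive, rose by 1.06 and 1.20 in nickel and 0.96 and 1.43 in cadmium, while their 0.36 and 0.14 in chromium were not called. Ccn2 averaged 5.36 (log2) on control arrays, below the filter floor of 5.919, and was tested only because exposed groups passed. Its rise is therefore not independent of the filter.

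Tubulins and intermediate filaments, the other filament systems of the cell, were counted as well. Their counts stand beside 23.5, 23.0 and 23.9% of all tested probe sets called higher and 16.5, 19.2 and 13.9% lower in nickel, chromium and cadmium. All 5 tested tubulin genes rose in chromium and in cadmium, and 2 of 5 in nickel, where the changes of the other 3 were 0.30 to 0.48. Tubb2a rose by 0.76, 0.93 and 1.14 in nickel, chromium and cadmium. Of 6 intermediate filament and lamin genes, 4 rose in nickel, 3 rose and 2 fell in chromium, and 4 rose in cadmium. Lmnb2, a B-type lamin, rose by 0.72, 1.02 and 0.72, and Lmnb1, the other B-type lamin, rose in chromium (0.84) with 0.07 in nickel and 0.05 in cadmium. Krt8 and Krt18, the keratin pair of hepatocytes, named here after their values were seen, rose in nickel (0.62 and 0.62) and fell in chromium (-0.34 and -0.25), and in cadmium Krt8 rose (0.24) while the 0.19 of Krt18 was not called. Among the genes often used as references in qPCR, 2 of 7 fell in nickel, 2 rose and 1 fell in chromium, and 3 rose and 1 fell in cadmium. With 7 genes, the chromium shares and the share that fell in cadmium were near those of all tested probe sets.

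**Figure D5:**
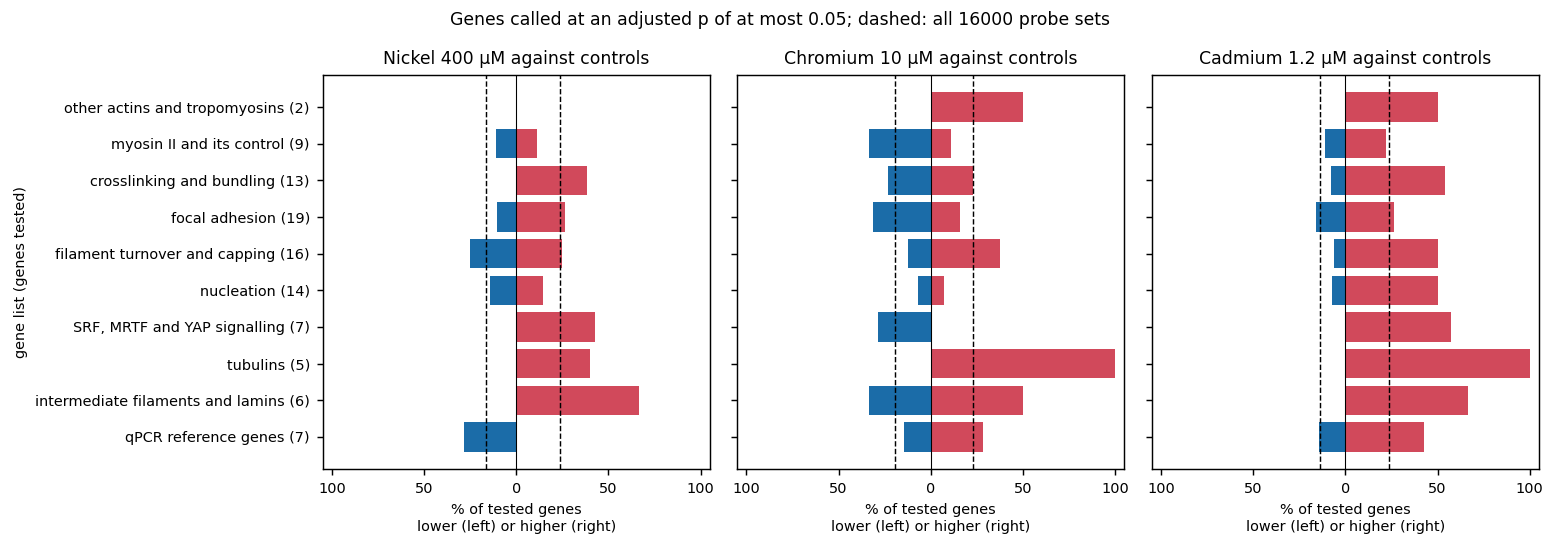
For each list by role, bars give the percent of tested genes called higher (right, red) or lower (left, blue) against controls at the highest concentration of nickel, chromium and cadmium, and dashed lines give the same percents over all 16000 tested probe sets (higher 23.5, 23.0 and 23.9%, lower 16.5, 19.2 and 13.9%). Tubulins stand at 2, 5 and 5 of 5 higher.

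The genes whose condition means followed Zyx most closely over the 10 conditions were Dusp1 (r = 0.985), Hivep1 (0.975), Rras2 (0.971), Tax1bp3 (0.970) and Pacc1 (0.969). Dusp1, an immediate early phosphatase of MAP kinases, had log2 changes of 2.00, 0.28 and 1.71 in nickel, chromium and cadmium at their highest concentrations. These correlations describe 10 means that share arrays and controls.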

How the data were processed

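The deposited values are log2 RMA values, computed by the authors with Partek Genomic Suite from GeneChip scans, and the authors replaced arrays that failed a replicate criterion by a repeated one. Conditions and replicate numbers followed the title order with the 4 repeated titles at the end. With it, condition means came within 7.5e-06 of the study's supplementary table for 992 probe sets (median 2.95e-06), whereas the original labels left a median gap of 0.164 and gaps of up to 4.32. That table gives no replicate numbers, which therefore stay unchecked by it.

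Of 31099 probe sets, 20826 named 1 gene, 436 several and 9780 none, and 57 were array controls. Detection calls were not used here. The 16000 probe sets with the highest lowest array in at least 1 condition were kept, down to 5.919. A gene was read by its brightest probe set. Each metal was fitted in limma 3.58.1 (R 4.3.3) on concentration and replicate, with the 2 controls of a replicate averaged, leaving 9 residual degrees of freedom, and all 10 conditions were fitted jointly for differences between metals (27). The methods also fit dose and batch. Deviations of same-numbered samples from their condition means correlated at medians of 0.52, 0.55 and 0.50 in nickel, chromium and cadmium, and above 0.1 in 24, 23 and 23 of 24 pairs. On simulated data for nickel at 400 µM, 95.5% of 200 2-fold changes among 16000 probe sets were recovered, with 3.54% of calls false. In the real data 40.0% of probe sets were called there, far more than the simulation changed. These rates check the procedure and do not give the share of real changes recovered in nickel. The number of arrays limits the precision.

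All 8 tested genes are counted in every comparison and named for each highest concentration against controls. At lower concentrations and between metals, called genes are named and the others only in part. Of each list at most 3 genes are named, those with the lowest adjusted p at any of the highest concentrations, unless said otherwise. The members and lists were chosen with earlier results of these data known. Gene symbols came from the platform annotation, and positions and promoters from RefSeq (GRCr8). Promoters were found for 8 of the 10 genes, not for Actb and Myl9. Alternatives were the labels as given, arrays with the same title in both orders, no repeated arrays, no replicate block, other uses of the controls, other filters, the ANOVA of the methods, the mean of a gene's probe sets and leaving out each replicate. A further gene list is not reported here.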

Additional observations from a re-analysis of the deposited data

Results flagged for a closer look

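In 4 of 80 groups of 4 replicates (8 genes by 10 conditions), an array stood apart, judged by its gap to the nearest array over the group's range. Chance alone gives about 1 in 20 groups. None of these was a repeated array. Actg1 in cadmium at 0.55 µM was 12.71 in replicate 1, with the nearest array at 13.19 (ratio 0.841), and replicate 1 also had low Actg1 in controls. Actn1 in cadmium at 0.2 µM was 9.46 in replicate 2, with the nearest at 9.65 (0.880). In nickel at 140 µM, replicate 3 was high for Tpm4 (10.94, nearest 10.70, ratio 0.833) and for Vcl (8.60, nearest 8.32, ratio 0.895).

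The response differed between metals in 10 of 24 tests of the difference itself, a share no higher than that of all tested probe sets in the same comparisons (44.6, 45.1 and 43.6% for nickel against chromium, nickel against cadmium and cadmium against chromium). Nickel at 400 µM exceeded chromium at 10 µM for Zyx by 1.27, Actg1 by 0.64, Actn1 by 0.49, Tpm4 by 0.42 and Vcl by 0.33 on the log2 scale. Cadmium at 1.2 µM exceeded chromium for Zyx by 0.85, Tpm1 by 0.62, Vcl by 0.54, Actg1 by 0.41 and Actn1 by 0.35. In limma the adjusted p ran from 2.4e-07 (Actn1, nickel against chromium) to 0.015 (Tpm4, nickel against chromium).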

How the results depend on the processing

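Counts of called genes, of 8, held within 1.5 times the reported count except as follows. With the labels as given, 0 genes were called in nickel at 400 µM, chromium at 10 µM, cadmium at 0.55 µM and cadmium at 1.2 µM, 1 between nickel and chromium and 0 between cadmium and chromium, and the log2 changes in cadmium at 1.2 µM turned to -0.18 for Tpm1 and -0.07 for Zyx. The 20 arrays with the same title in both orders are those of replicate 1 and part of replicate 2. They hold 1 array each of cadmium at 0.55 and 1.2 µM. Their counts moved in cadmium at 0.55 µM, between nickel and cadmium and between cadmium and chromium. These counts are not given, as they rest on a single cadmium array. Without the repeated arrays, 4 genes were called in cadmium at 0.55 µM and 4 between nickel and cadmium. Cadmium at 0.55 µM had 0 genes with no replicate block, 5 with control arrays as separate samples, 5 with Control 1 alone, 1 with Control 2 alone and 1 with no filter. Nickel at 140 µM had 1 with control arrays as separate samples. Nickel against cadmium had 1 in the ANOVA of the methods and 1 by the mean of a gene's probe sets, by which cadmium against chromium had 3. With no replicate block, 5 genes were called in nickel at 400 µM, 2 in chromium at 10 µM and 6 in cadmium at 1.2 µM. There Vcl in nickel (adjusted p = 0.054), Flna in chromium (0.12) and Actg1 (0.12) and Tpm1 (0.074) in cadmium were lost. Leaving out each replicate gave 2 to 7 genes in nickel at 400 µM (2 without replicate 2), 2 to 3 in chromium at 10 µM, 0 to 3 in cadmium at 0.55 µM, 7 to 8 in cadmium at 1.2 µM, 4 to 7 between nickel and chromium, 0 to 2 between nickel and cadmium and 5 to 6 between cadmium and chromium, with 0 at the other concentrations. The cause of these changes was not tested.

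Flna in nickel was called in limma by 20 arrays (1.46, adjusted p = 0.0029) and without the repeated arrays (0.95, adjusted p = 0.026). Of nickel at 400 µM the 20 arrays hold only replicates 1 and 2, where Flna changed by 1.96 and 0.96. This call is therefore no separate check of the replicates with little change. Tpm1 in cadmium was not called by 20 arrays (0.18, adjusted p = 0.13) or by the mean of its probe sets (0.14, adjusted p = 0.12).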
